A study of Mus musculus with 15 samples.

Results

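The mitochondrial ribosomal protein genes were taken as all rows of the normalised table whose gene identifier carries a symbol starting with Mrpl or Mrps and a digit, with pseudogenes left out. This gave 77 of the 17712 measured genes, 48 of them Mrpl and 29 Mrps. The annotation holds 78 such genes. Mrpl53 is the one that was not analysed here. RNA came from 15 subcutaneous tumours of MC38, a mouse colon carcinoma line, grown in the flank of C57BL/6 mice and taken 24 h after a single 100 µL injection into a tumour of about 5 mm. Of these, 4 had received both agents (50 µg of BO-112 and 100 µg of DMXAA), 4 BO-112 alone at 50 µg, 4 DMXAA alone at 100 µg, and 3 vehicle, a buffered saline with DMSO and glucose. The tumours of a group are labelled biological replicates. BO-112 carries poly I:C, an imitation of viral double-stranded RNA, in nanoparticles, and DMXAA activates mouse STING, the adaptor of cytosolic DNA sensing. A library holds the RNA of a whole tumour, so cells of the host are included, and in such bulk RNA fewer cells of a type cannot be told apart from less RNA per cell.

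The mitochondrial ribosome translates the few proteins that the mitochondrial genome encodes, all of them subunits of the respiratory chain. Its RNAs come from that genome, while its proteins are encoded in the nucleus, made in the cytosol and imported. Some of these proteins have counterparts in bacterial ribosomes, and others are found in mitochondria alone. The large subunit joins amino acids and the small subunit reads the messenger RNA.

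Of the 77 genes, 50 code for proteins of the large subunit, among them Mrps30 and Mrps18a despite their symbols, and 26 for proteins of the small subunit. The remaining one, Mrps36, codes for a component of the oxoglutarate dehydrogenase complex. By origin, 46 have a bacterial counterpart and 30 are specific to mitochondria. All 77 were well counted, with at least 78 reads for each gene in each library, out of 12725316 to 19660511 reads per library. Levels are given in CPM, a gene's reads relative to the scaled total of its library. Differences are on the log2 scale, with their standard error, from limma's moderated test fitted over all measured genes, and a gene passed at a Benjamini-Hochberg adjusted p below 0.05 over all of them.

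Libraries DMXAA 2 and DMXAA 3 stood apart for these genes, and the calls and medians of the comparisons are given with and without them. The labels name no batch. Markers of skeletal muscle, of which 11 of 12 were measured, summed to more in vehicle 2, BO-112 1, DMXAA 1 and DMXAA 3 than elsewhere, at 177, 579.6, 955 and 496 CPM. DMXAA 2 had the highest macrophage sum, 5479.7 CPM over 7 of 7 markers against 2515 to 3587 CPM elsewhere, carried by the complement genes C1qa (2337 CPM), C1qb (1315 CPM) and C1qc (1106 CPM). Cd68, another macrophage marker, was lowest there, at 84.7 CPM against 146 to 273 CPM, and Adgre1 lay inside the range of the other libraries. Adipocyte markers, with 7 of 7 measured, summed to 340.2 CPM in DMXAA 2, the highest, and to 8.31 to 289 CPM elsewhere. Neutrophil markers, 7 of 7, summed to 75.8 to 117 CPM with BO-112 and 29.4 to 40.0 CPM in vehicle tumours. Most of it was Csf3r, at 58.9 to 76.8 CPM with BO-112 and 24.5 to 37.0 CPM in vehicle tumours. The ranges of these groups overlapped in Retnlg and Ly6g and not in the other neutrophil markers. Of 8 epithelial markers 3 were in the table. Epcam, the epithelial adhesion molecule, reached at most 2.67 CPM and Krt19 at most 1.84 CPM, while the epithelial cadherin Cdh1 lay between 4.91 and 82.6 CPM. The 3 summed to 6.57 to 11.6 CPM with BO-112 and 27.5 to 85.3 CPM in vehicle tumours, most of it Cdh1. Of the 3, Krt19 alone was higher with BO-112, at 0.20 to 1.53 CPM against 0.06 to 0.12 CPM in vehicle tumours. The part of these markers in the results was not tested.

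The highest mean levels over the 15 libraries were those of Mrpl13 (119 CPM) and Mrpl12 (116 CPM), both large subunit proteins with bacterial counterparts, then Mrpl38 (78.9 CPM) and Mrpl42 (70.6 CPM), both specific to mitochondria. The lowest were Mrps34 (7.94 CPM), a mitochondria-specific protein of the small subunit, Mrpl46 (14.1 CPM), Mrps11 (14.2 CPM) and Mrps36 (15.5 CPM). The median gene stood at 38.8 CPM. A level in CPM grows with transcript length, so genes are ranked against each other per kb of transcript. On that scale Mrpl52 led with 133 CPM per kb, ahead of Mrpl42 with 107, Mrpl20 with 103 and Mrps21 with 98.3. Mrps25, Mrpl47, Mrpl19 and Mrpl1 were lowest, at 5.27, 6.55, 6.64 and 6.78 CPM per kb. The annotated transcript of Mrps25 is 6073 bp long, with a coding length of 513 bp, and per kb of coding length Mrpl13 (223), Mrpl33 (219) and Mrpl12 (193) were highest. Large subunit genes had a median of 31.5 CPM per kb of transcript and small subunit genes of 24.3, but per kb of coding length the medians were 57.5 and 56.6.

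The DMXAA tumours held a pair of libraries that were high for nearly all of these genes and a pair that were not. The median deviation of the 77 genes from their own means was -0.03, -0.22, 0.07 and -0.26 on the log2 scale with both agents, and -0.19, -0.20, -0.11 and -0.19 with BO-112. It was -0.06, 1.04, 0.53 and -0.04 with DMXAA, and -0.18, -0.03 and 0.01 in vehicle tumours. DMXAA 1 and DMXAA 4 thus lay inside the range of the vehicle tumours, and DMXAA 2 and DMXAA 3 above every other library. The genes held 0.520% of all reads in DMXAA 2 and 0.401% in DMXAA 3, against 0.239% to 0.308% in the other 13 libraries.

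**Figure D1:**
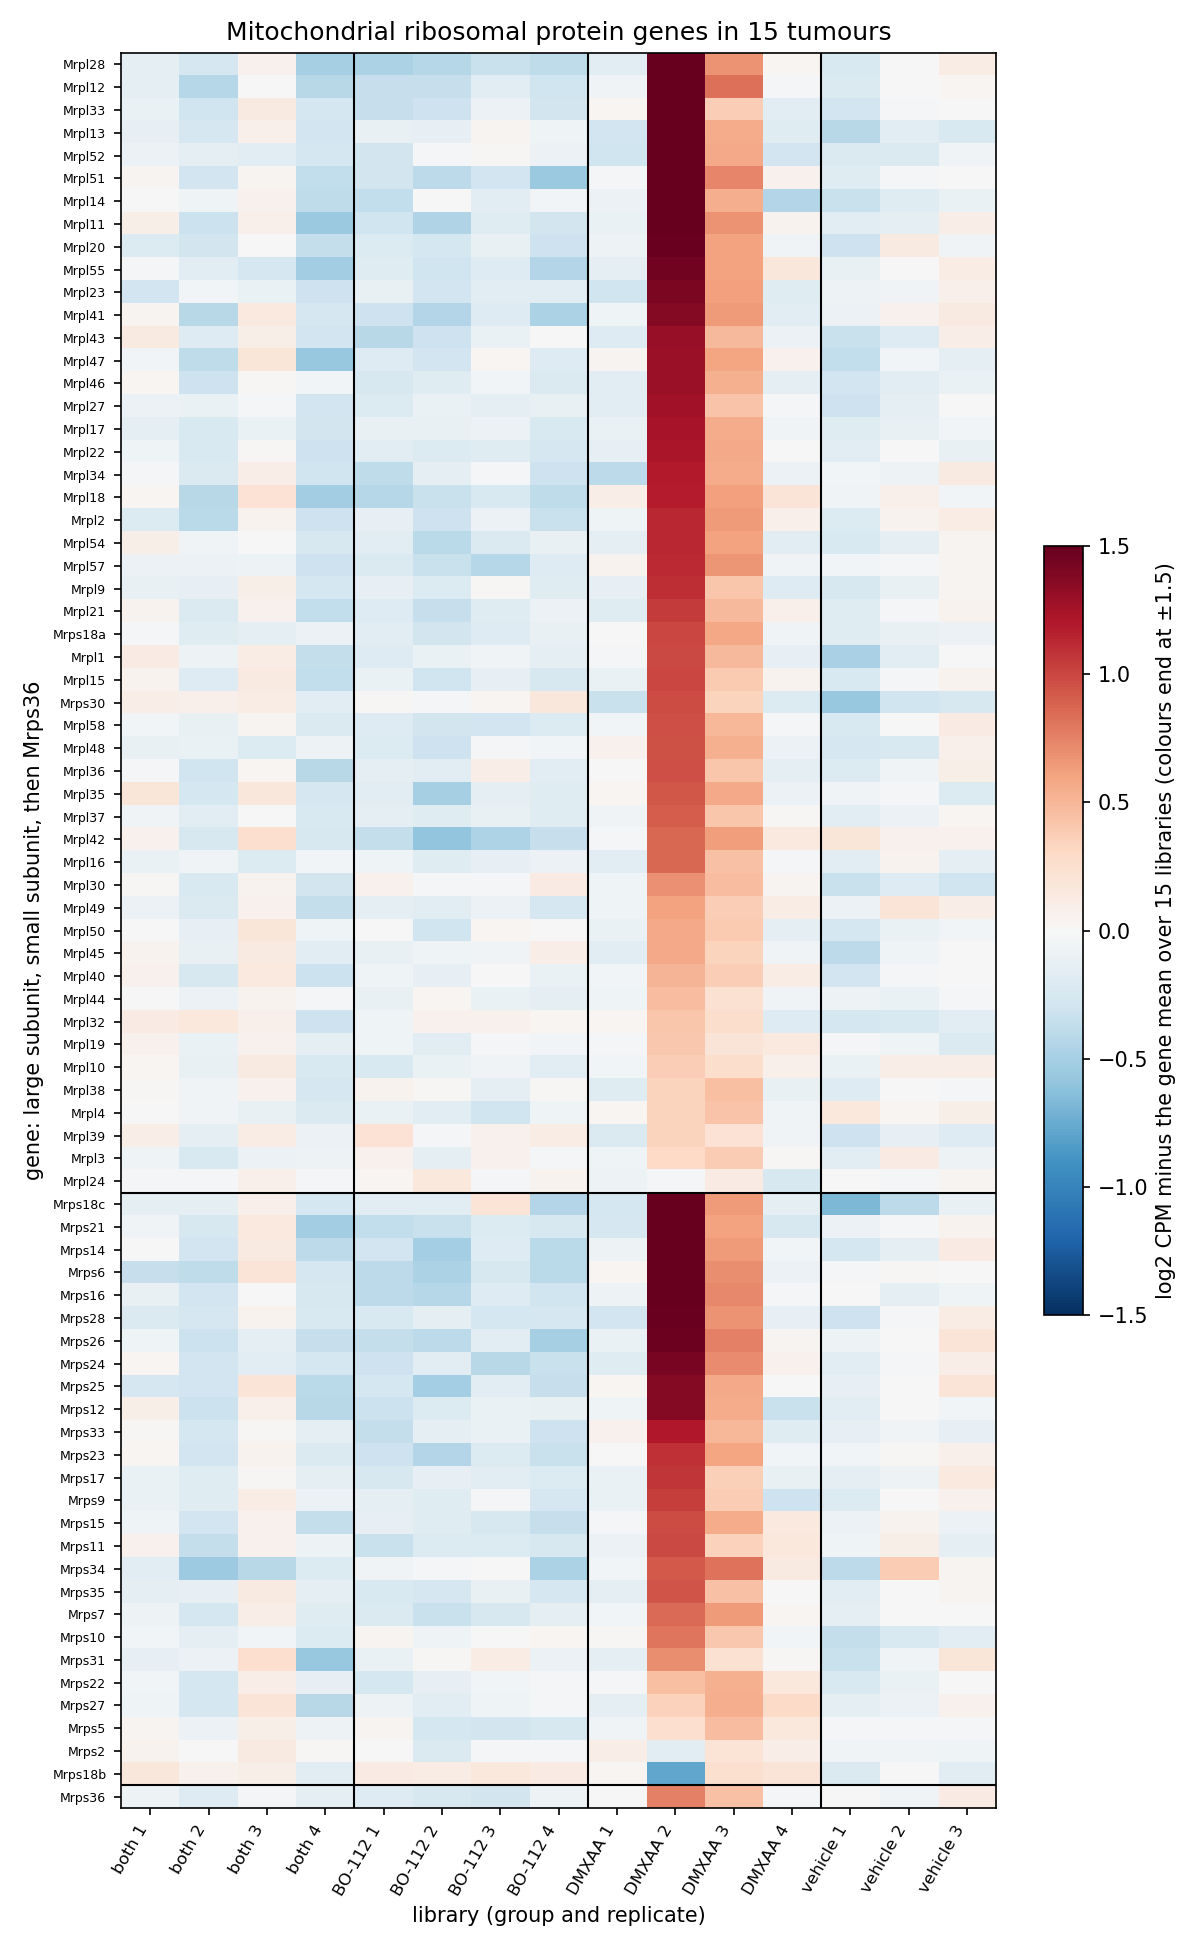
Log2 CPM of each of the 77 genes minus its mean over the 15 libraries, with genes as rows (large subunit, small subunit, then Mrps36, each ordered by the value in DMXAA 2) and libraries as columns; colours end at 1.5 on either side. DMXAA 2 is high in 74 of 77 genes and DMXAA 3 in all 77, while Mrps18b is low in DMXAA 2.

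Against the mean of the other 13 libraries, DMXAA 2 was higher by a median of 1.15 (log2) over the 77 genes, and 74 of them were above each of those 13 libraries. DMXAA 3 was higher by a median of 0.63, with 75 genes above all 13. The largest differences in DMXAA 2 were those of Mrpl28 (2.23), of the large subunit, and Mrps18c (2.17), the counterpart of the bacterial small subunit protein S18. In DMXAA 3 the largest was that of Mrpl12 (1.01). The difference had medians of 1.15 in the 50 large and 1.17 in the 26 small subunit genes for DMXAA 2, and of 0.62 and 0.69 for DMXAA 3. It was 1.29 in genes with a bacterial counterpart and 1.06 in mitochondria-specific ones for DMXAA 2. These differences describe 2 libraries and were not tested.

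Mrpl12 (ENSMUSG00000039640.8), a protein of the stalk that recruits translation factors, followed the other genes most closely. It had 97.1, 79.9, 108 and 80.1 CPM with both agents, and 84.4, 84.3, 96.2 and 87 CPM with BO-112. It had 103, 321, 190.1 and 106 CPM with DMXAA and 92.5, 106 and 109.5 CPM in vehicle tumours. DMXAA 2 and DMXAA 3 were high, and DMXAA 1 and DMXAA 4 lay within the vehicle range. Mrps18c (ENSMUSG00000016833.15) had 12.4, 58.2, 23.1 and 13.5 CPM with DMXAA, against 9.32, 11.3 and 13.7 CPM in vehicle tumours, and 13.5, 13.5, 15.6 and 12.4 CPM with both agents, against 13.2, 13.2, 17.2 and 10.9 CPM with BO-112. Mrps12 (ENSMUSG00000045948.9), the decoding protein of the small subunit, had 21, 56.9, 32.2 and 17.4 CPM with DMXAA and 19.5, 22 and 21.4 CPM in vehicle tumours. Mrpl3 (ENSMUSG00000032563.17), a large subunit protein near the peptidyl transferase centre, differed less, with 44.1, 56.7, 60.1 and 46.6 CPM with DMXAA and 41.3, 50.2 and 43.6 CPM in vehicle tumours.

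3 genes did not share the excess of DMXAA 2. Mrps18b (ENSMUSG00000024436.17), a relative of Mrps18c counted here as mitochondria-specific, had 19.3, 11, 22.4 and 21.5 CPM with DMXAA, against 16.2, 19 and 17 CPM in vehicle tumours. DMXAA 2 was its lowest library of all 15, at -0.81 (log2) from the mean of the other 13, while DMXAA 3 was its highest. Mrps2 (ENSMUSG00000035772.12), of the small subunit, had 48.1, 40.0, 51.7 and 48.2 CPM with DMXAA and 43.3, 43.2 and 43.1 CPM in vehicle tumours. Mrpl24 (ENSMUSG00000019710.14), of the large subunit, had 40.6, 42, 46.7 and 36.2 CPM with DMXAA and 42.8, 41.9 and 44.1 CPM in vehicle tumours. In Mrps2 and Mrpl24, DMXAA 2 was at or just below the mean of the other 13 libraries, with differences of -0.17 and -0.02. Mrps18b shares 578 bp of exon with the antisense gene Gm16279, which had a mean of 1.08 CPM, and Mrpl24 shares 463 bp with Rrnad1 on the other strand, at 25 CPM. The library kit was stranded, but how strand was used in counting is not given in the sources used here, so reads of such pairs may be mixed.

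Promoters are shown for 4 genes whose values differed in kind: Mrpl12, closest to the family's median, Mrps18b, low in DMXAA 2, and Mrpl42 and Mrpl30, among the lower and the higher genes with BO-112 when the 2 high libraries were left out. The 120 bases just before the start are given 5′ to 3′ on the gene's strand, from RefSeq on GRCm38.p6, with matches to the motif of NRF1 (GCGC, then A and any base, then GCGC) or SP1 (GGGGCGGG), on either strand, in capitals. The positions are those of Mrpl12 (chr11:120484517-120484636, plus strand), Mrpl30 (chr1:37890357-37890476, plus strand), Mrpl42 (chr10:95501950-95502069, minus strand) and Mrps18b (chr17:35916441-35916560, minus strand).
Mrpl12: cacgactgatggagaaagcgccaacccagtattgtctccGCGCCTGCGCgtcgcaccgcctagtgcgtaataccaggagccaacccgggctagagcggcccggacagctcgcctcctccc
Mrpl30: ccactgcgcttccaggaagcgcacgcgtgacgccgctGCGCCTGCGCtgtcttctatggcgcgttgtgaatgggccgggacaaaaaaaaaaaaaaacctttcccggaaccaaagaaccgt
Mrpl42: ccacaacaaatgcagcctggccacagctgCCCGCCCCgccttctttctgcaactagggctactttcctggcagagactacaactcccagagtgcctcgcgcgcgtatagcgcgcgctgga
Mrps18b: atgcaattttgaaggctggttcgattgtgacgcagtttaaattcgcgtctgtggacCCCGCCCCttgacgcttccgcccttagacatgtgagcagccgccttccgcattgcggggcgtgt
NRF1 and the ETS factor GABP are known activators of nuclear genes for mitochondrial proteins. The RefSeq table held promoters, 250 bases before to 50 after a start, for 68 of the 77 genes, with 74 windows. The NRF1 motif was in 17.6% of the 74 and 4.60% of all 32851 windows. The ETS motif (CCGGAAGT) was in 16.2% and 3.89%, and that of YY1 (AANATGGC) in 28.4% and 6.05%. The SP1 motif was in 31.1% and 16.5%, and the cyclic AMP response element (TGACGTCA) in 2.70% and 1.79%. At least 1 of the NRF1, ETS and YY1 motifs was in 54.1% of the family's windows, in 40 genes, against 13.4% of all windows. Mrpl42 was among these genes, with a YY1 match that does not lie within the 120 bases printed, and Mrps18b was not. Motifs were searched on both strands and may overlap, and a match is a run of letters, not a measured binding site. No binding was measured in these tumours.

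Across the 15 libraries, 55 of the 77 genes correlated with the median of the other genes at a Pearson r above 0.9, with a median r of 0.94. The points share the scaling of each library, and the median SD of a gene over the 15 libraries was 0.36 (log2), against 0.15 without DMXAA 2 and DMXAA 3. The lowest were Mrps18b (-0.56), Mrps2 (0.015), Mrpl24 (0.048), Mrpl39 (0.60) and Mrpl32 (0.67). Without DMXAA 2 and DMXAA 3, 3 genes were above 0.9 over the 13 libraries, 18 above 0.8 and 56 above 0.5, with a median r of 0.66. Those 3 were Mrps14 (0.93), Mrpl15 (0.93) and Mrpl11 (0.90), named after their values were seen. Mrpl44 (ENSMUSG00000026248.10), a protein with a ribonuclease III fold, was the steadiest over these 13 libraries, with an SD of 0.058 (log2), and Mrpl42 varied most, with 0.27.

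The excess in the 2 libraries was larger in genes of short coding length, among these genes and among all genes. The 77 genes are short, with a median coding length of 588 bp against 1380 bp over all genes, and a median transcript of 1226 bp against 2366 bp. In DMXAA 2 the difference from the other 13 libraries had a Spearman rho with coding length of -0.58 over the 77 genes and of -0.52 over 14216 coding genes. In DMXAA 3 these were -0.46 and -0.45. Genes are not independent replicates, so these values carry no p. At a coding length of up to 600 bp, the 40 mitochondrial ribosomal genes had a median difference of 1.48 in DMXAA 2, against 0.92 in 1853 genes of that length. From 600 to 900 bp the medians were 1.06 over 22 genes of the family and 0.50 over 2023 genes, and from 900 to 1500 bp 0.63 over 15 and 0.16 over 3966. In DMXAA 3 the 3 classes gave 0.72, 0.57 and 0.51 for the family, against 0.42, 0.25 and 0.11 for all genes of the same length. By transcript length the rho was weaker over the family, at -0.32 in DMXAA 2 and -0.23 in DMXAA 3, against -0.41 and -0.40 over all genes. The 13 genes of the family with transcripts over 3000 bp had a median difference of 1.08 in DMXAA 2 and 0.60 in DMXAA 3, where 6363 genes of that length had -0.43 and -0.23. The part of length in the excess was not tested.

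**Figure D2:**
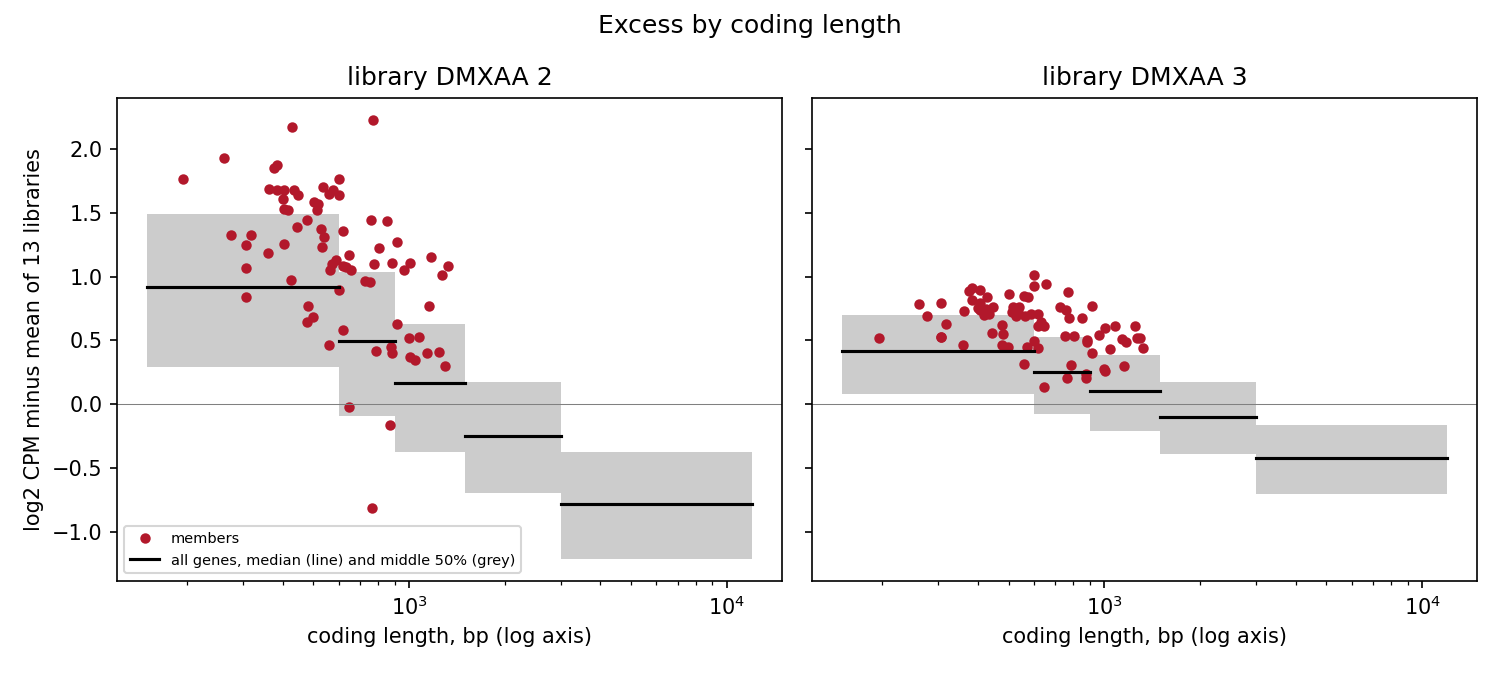
Difference in log2 CPM from the mean of the other 13 libraries against coding length in bp (log axis), in DMXAA 2 (left) and DMXAA 3 (right); red points are the 77 genes, black lines and grey boxes the median and middle 50% of all genes of a length class. Short genes lie higher in both libraries, and in each of the first 3 length classes the family lies above the median of all genes, for example 1.48 against 0.92 up to 600 bp in DMXAA 2.

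DMXAA against vehicle asked what the STING agonist changed within a day. No gene of the family passed in limma's test, and 1.25% of all genes did. At an unadjusted p below 0.05 there were 27, and limma-voom on the recovered reads called 0 and had 19 at that level. Of all 17712 genes, 3204 in limma and 3014 in limma-voom were at that level. The median difference over the 77 genes was 0.45 (all genes 0.01), with 76 positive. The smallest adjusted p-values were those of Mrpl30 and Mrps10, proteins of the large and the small subunit with bacterial counterparts. Mrpl30 (ENSMUSG00000026087.12) had 48.6, 81.4, 69.8 and 52.3 CPM with DMXAA and 40.3, 44.3 and 41.2 CPM in vehicle tumours (0.56 ± 0.16, adjusted p = 0.103). Mrps10 (ENSMUSG00000034729.17) had 45.3, 78.1, 59.2 and 43.6 CPM with DMXAA and 35, 38.3 and 40.1 CPM in vehicle tumours (0.54 ± 0.16, adjusted p = 0.121). In both the groups did not overlap, as in 6 genes of the family against 6.52% of all genes. Without DMXAA 2 and DMXAA 3 the family's median was 0.02 and again 0 genes passed (2.11% of all genes). Mrpl30 then stood at 0.27 ± 0.11, adjusted p = 0.288. In that fit 2 genes of the family and 2303 of all genes had an unadjusted p below 0.05.

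Between the single agents, 30 of the 77 genes passed, all lower with BO-112 than with DMXAA, where 21.4% of all genes passed, 10.2% lower and 11.2% higher. They were 16 of the 50 large subunit genes, 13 of the 26 small subunit genes and Mrps36. The median over the family was -0.54 (all genes -0.05), with 74 of 77 negative. Among the 30, the differences lay between -1.04 for Mrpl28 and -0.34 for Mrpl4. Group ranges did not overlap in 33 genes of the family, all lower with BO-112, against 10.5% of all genes. Limma-voom on the recovered reads called 26 genes of the family, all of them among the 30, and 3604 of all genes. These fits share a single spread over all groups. The SD of the family's library medians was 0.53 with DMXAA and 0.04 with BO-112. A fit to the BO-112 and DMXAA tumours alone called far fewer genes of the family, as given with the other settings below.

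Mrpl42 (ENSMUSG00000062981.6), a mitochondria-specific protein of the large subunit whose promoter is printed beside that of Mrpl12, had the smallest adjusted p. It had 53.2, 45.1, 49.2 and 53.7 CPM with BO-112, against 66.8, 123, 105 and 75.2 CPM with DMXAA, so that the highest BO-112 tumour was below the lowest DMXAA tumour (mean 50.3 ± 4.00 against 92.7 ± 26.3 CPM, SD, n = 4 each, -0.84 ± 0.17, adjusted p = 0.00452 in limma). With both agents it had 71.2, 57.7, 80.9 and 57.7 CPM, and in vehicle tumours 76.9, 71.2 and 71.3 CPM. Mrpl18 (ENSMUSG00000057388.10), a large subunit protein of the bacterial type found at the central protuberance, had 26.2, 27.9, 30.0 and 27.1 CPM with BO-112, against 37.6, 79.3, 54.1 and 40.1 CPM with DMXAA (-0.86 ± 0.21, adjusted p = 0.0115 in limma). Its groups did not overlap either. It shares 17 bp with Tcp1 on the other strand, at 329 CPM. Mrpl51 had 47.2, 43.6, 46.7 and 39 CPM with BO-112 and 56.6, 162, 95.2 and 59.9 CPM with DMXAA, and Mrps23 32.6, 29.7, 35 and 32 CPM with BO-112 and 40.4, 86.3, 60.7 and 39 CPM with DMXAA. All 4 BO-112 tumours were below all 4 DMXAA tumours in both. Mrpl51, Mrpl57, Mrps23 and Mrps15 followed Mrpl18 in the order of p, at -0.95 ± 0.25, -0.74 ± 0.20, -0.73 ± 0.20 and -0.64 ± 0.17, with limma adjusted p-values of 0.0171, 0.0193, 0.0194 and 0.0205.

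Other proteins with known roles were spread over these calls. Mrpl11 (ENSMUSG00000024902.6), at the base of the stalk, had 32.8, 29.3, 35.4 and 33.3 CPM with BO-112 and 37.4, 114, 64 and 41.7 CPM with DMXAA (-0.83 ± 0.27, adjusted p = 0.0397). The stalk protein Mrpl12 passed too (-0.87 ± 0.27, adjusted p = 0.0341). In both, DMXAA 2 was far above the other DMXAA tumours. Mrps7 (ENSMUSG00000046756.11), which binds the small ribosomal RNA early in assembly, had 50.7, 46.8, 50.2 and 54 CPM with BO-112 and 57.4, 107, 92.4 and 60.4 CPM with DMXAA (-0.60 ± 0.17, adjusted p = 0.0231). Mrps5 (-0.39 ± 0.11, adjusted p = 0.0276), Mrps16 (-0.86 ± 0.25, adjusted p = 0.0288) and Mrps22 (-0.39 ± 0.13, adjusted p = 0.0429), all of the small subunit, passed as lower, and defects of the last pair are known to cause inherited disease in humans. Mrpl58 (ENSMUSG00000018858.16), a peptidyl-tRNA hydrolase that frees stalled ribosomes, was lower (-0.59 ± 0.18, adjusted p = 0.0326). Mrpl41 was lower as well (-0.80 ± 0.26, adjusted p = 0.0407). Of the 3 Mrps18 genes, of which Mrps18a and Mrps18b were counted as mitochondria-specific, Mrps18a passed (-0.57 ± 0.18, adjusted p = 0.0352), while Mrps18c (-0.70 ± 0.36, adjusted p = 0.154) and Mrps18b (0.21 ± 0.18, adjusted p = 0.394) did not. Mrpl3 (-0.17 ± 0.11, adjusted p = 0.264), Mrpl44 (-0.22 ± 0.12, adjusted p = 0.166), Mrps12 (-0.57 ± 0.27, adjusted p = 0.131) and Mrpl45, which anchors the ribosome at the inner membrane (-0.20 ± 0.15, adjusted p = 0.303), did not either. Mrps36, of the oxoglutarate dehydrogenase complex, passed as lower (-0.49 ± 0.15, adjusted p = 0.036).

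**Figure D3:**
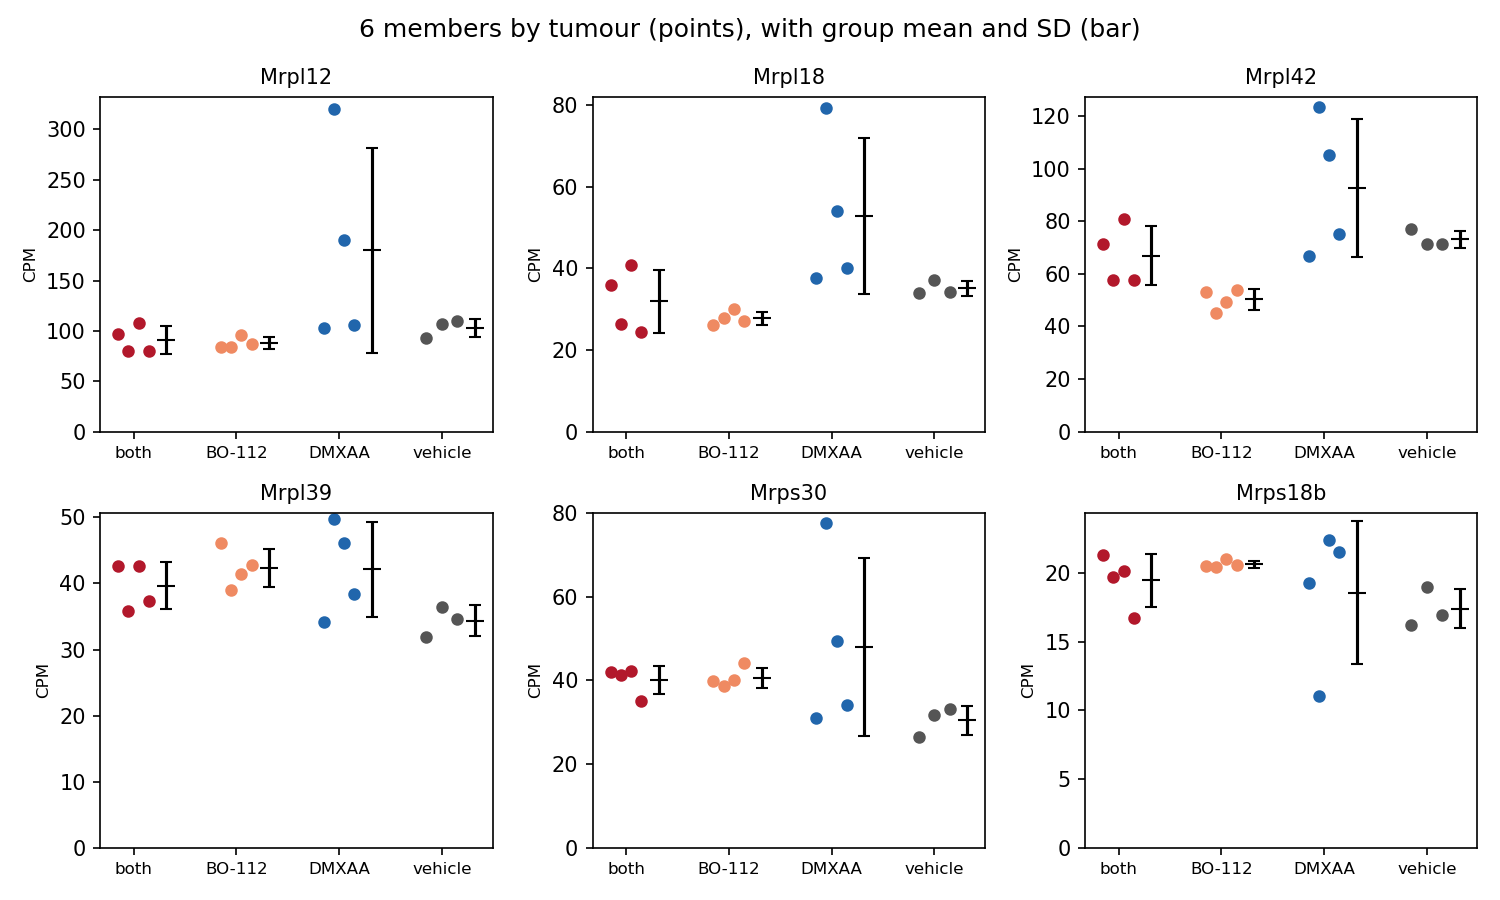
CPM of 6 genes in each tumour (points), with the group mean and SD (bar), for both agents, BO-112, DMXAA and vehicle from left to right; each axis starts at 0. In Mrpl12 and Mrpl18 the DMXAA group splits into 2 high and 2 ordinary tumours, Mrpl42 is low in all 4 BO-112 tumours, Mrpl39 and Mrps30 are lower in the 3 vehicle tumours than in the 4 BO-112 tumours, and Mrps18b has its lowest value in DMXAA 2.

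Most of the 30 calls were lost without the high DMXAA tumours, and also when any single BO-112 tumour was left out. Leaving both out keeps only DMXAA 1 and DMXAA 4, so the group was smaller as well. Without DMXAA 2 and DMXAA 3 the family's median was -0.14 and 2 genes passed, Mrpl42 (-0.50 ± 0.13, adjusted p = 0.0222 in limma) and Mrpl51 (-0.41 ± 0.12, adjusted p = 0.0475), while 10.9% of all genes passed and 4.35% were lower. Mrpl18 then stood at -0.48 ± 0.16, adjusted p = 0.067. Leaving out single libraries gave 16 calls without DMXAA 2 and 2 without DMXAA 3, but 55 without DMXAA 1 and 57 without DMXAA 4. Without BO-112 1, 2, 3 or 4 there were 7, 5, 11 and 6. The calls over all genes in these single-library fits are not given here, so the counts describe the family alone. Mrpl42 and Mrpl18 passed in each of the 15 fits that left out 1 library, and Mrpl51 and Mrpl57 in 14 of them. With the trend on transcript length removed from each library, 22 genes passed, 21 lower and Mrpl24 higher with BO-112, where 20.7% of all genes passed, and 20 of them were among the 30. The family's median in that fit was -0.23. Without the 4 libraries high in muscle genes 1 passed, Mrpl42. These 4 include DMXAA 1 and DMXAA 3, so that fit also lacks a high DMXAA tumour. Its share of all genes is not given here.

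**Figure D4:**
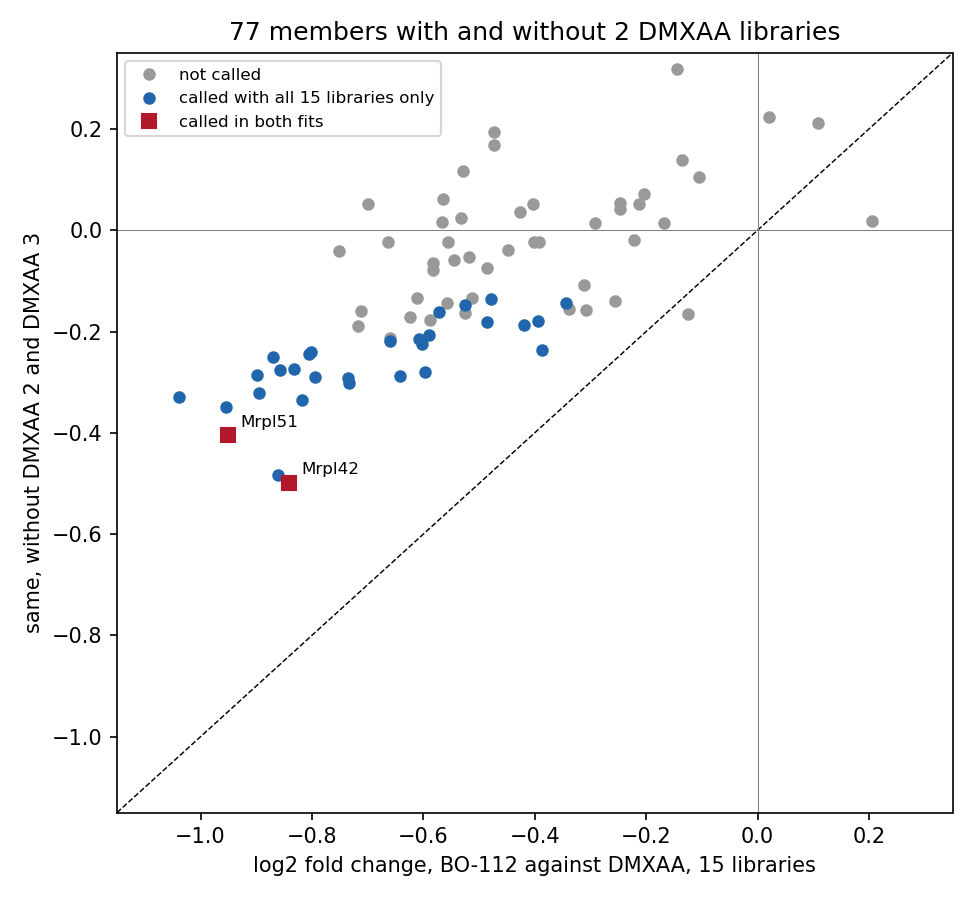
Log2 difference of BO-112 against DMXAA for the 77 genes in the fit of 15 libraries (x axis) and without DMXAA 2 and DMXAA 3 (y axis), with the line of equality dashed. Red squares passed in both fits (Mrpl42 and Mrpl51), blue points in the first only (28 genes). The median moves to -0.14 on the y axis, against -0.54 on the x axis.

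BO-112 against vehicle asked what the RNA mimic changed. No gene of the family passed in limma, where 11.9% of all genes did, with 2 at an unadjusted p below 0.05 in limma and 2 in limma-voom, which also called 0. Of all 17712 genes, 4647 in limma and 4651 in limma-voom were at that unadjusted level. The family's median was -0.12 (all genes -0.04). Group ranges did not overlap in 7 genes that were higher and 21 that were lower with BO-112, against 18.1% and 16.8% of all genes. Mrpl42 had the smallest adjusted p, with 53.2, 45.1, 49.2 and 53.7 CPM with BO-112 and 76.9, 71.2 and 71.3 CPM in vehicle tumours (-0.54 ± 0.18, adjusted p = 0.0695). This fit shares 1 spread over all groups, the DMXAA tumours included. Without DMXAA 2 and DMXAA 3 the differences stayed as they were, the errors of the genes named here were smaller, and 14 genes passed, where 25.1% of all genes did. The libraries left out were those that stood apart for these same genes, so the smaller errors follow in part from that choice.

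Of these 14, 10 were lower with BO-112 and 4 were higher. Mrpl42 was first among the lower ones (-0.54 ± 0.11, adjusted p = 0.00279). Mrps26 (-0.39 ± 0.10, adjusted p = 0.0107) and Mrps23 (-0.34 ± 0.10, adjusted p = 0.0187), both mitochondria-specific small subunit proteins, came next. Mrpl41 (ENSMUSG00000036850.5), a mitochondria-specific protein of the large subunit, had 15.2, 13.9, 16.5 and 13.6 CPM with BO-112 and 17.8, 19.8 and 20.7 CPM in vehicle tumours (-0.39 ± 0.13, adjusted p = 0.0393). The 4 higher ones were Mrps30, Mrpl30, Mrpl39 and Mrps10. Mrps30 (ENSMUSG00000021731.11), a mitochondria-specific protein of the large subunit, had 39.8, 38.6, 40.1 and 44.1 CPM with BO-112 and 26.5, 31.8 and 33.1 CPM in vehicle tumours (0.42 ± 0.10, adjusted p = 0.00563). Mrpl39 (ENSMUSG00000022889.8), another one, had 46.1, 39.1, 41.5 and 42.7 CPM with BO-112 and 32, 36.5 and 34.7 CPM in vehicle tumours (0.30 ± 0.09, adjusted p = 0.0269). Mrpl30 had 53.1, 49.7, 49.8 and 55.3 CPM with BO-112 (0.31 ± 0.09, adjusted p = 0.0225). In Mrpl42, Mrpl41, Mrps30, Mrpl39 and Mrpl30 the groups did not overlap. The other lower ones, named after their values were seen, were Mrpl28, Mrpl4, Mrpl51, Mrpl57, Mrps16 and Mrps6. A fit to the BO-112 and vehicle tumours alone also called 14, of which 11 were the same genes. The share of all genes in that fit is not given here.

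With both agents, no gene of the family passed against vehicle (2.67% of all genes passed), against BO-112 (0% of all genes) or against DMXAA (0.886% of all genes). At an unadjusted p below 0.05 limma had 0, 1 and 47, and limma-voom called 0 in each and had 0, 1 and 41. Of all genes, limma had 2034, 1690 and 4239 at that level, and limma-voom 1965, 1631 and 3978. The family's medians were -0.04, 0.07 and -0.46 in these 3 comparisons (all genes -0.01, 0.01 and -0.0011). Mrps30 had 41.9, 41.4, 42.2 and 35.1 CPM with both agents, against 26.5, 31.8 and 33.1 CPM in vehicle tumours (0.40 ± 0.23, adjusted p = 0.593 in limma, and 0.40 ± 0.10, adjusted p = 0.0226 without DMXAA 2 and DMXAA 3, where 5.67% of all genes passed). It was the one gene of the family that passed there. Mrpl42 had 71.2, 57.7, 80.9 and 57.7 CPM with both agents and 53.2, 45.1, 49.2 and 53.7 CPM with BO-112, without overlap of the groups (0.40 ± 0.17, adjusted p = 0.478). Without DMXAA 2 and DMXAA 3 that comparison called 0 genes of the family, with 3 at an unadjusted p below 0.05, and 1.16% of all genes. At that unadjusted level were 3085 of all genes.

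Against DMXAA the family depended on which DMXAA tumours entered. Mrps34 had the smallest adjusted p, with 6.79, 5.22, 5.70 and 6.61 CPM with both agents and 7.38, 14.4, 13.3 and 8.33 CPM with DMXAA (-0.78 ± 0.23, adjusted p = 0.0977 in limma). The number of calls was 0 with all 15 libraries, 30 without DMXAA 1, 21 without DMXAA 4 and 0 without DMXAA 2 and DMXAA 3, where the median was -0.07 and 0.0395% of all genes passed. The shares of all genes without DMXAA 1 and without DMXAA 4 are not given here. The interaction, the difference of both agents from BO-112 less that of DMXAA from vehicle, called 0 genes of the family in limma (1.35% of all genes) with 2 at an unadjusted p below 0.05, and 0 and 2 in limma-voom. Of all genes, 2605 in limma and 2576 in limma-voom were at that unadjusted level. The family's median interaction was -0.36 (all genes 0.02) and 0.06 without DMXAA 2 and DMXAA 3, where 0 genes of the family and 4.01% of all genes passed. Mrpl30 (-0.70 ± 0.21, adjusted p = 0.13) and Mrps10 (-0.65 ± 0.22, adjusted p = 0.174) were closest to the threshold.

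Other genes of mitochondrial gene expression were read beside the family. In DMXAA 2 and DMXAA 3 the median deviations of 83 nuclear genes of the respiratory chain were 1.46 and 0.59, and those of 90 cytosolic ribosomal proteins 1.43 and 0.53, against 1.04 and 0.53 for the family. The 5 proteins of the mitochondrial ribosome without an Mrp symbol stood at 1.02 and 0.51, 23 import genes at 0.87 and 0.48, 14 translation factors at 0.30 and 0.25, and 22 genes of mitochondrial tRNA charging at 0.11 and 0.27. The 12 genes encoded in the mitochondrial genome, which are the templates of this ribosome, went the other way, at -0.50 and -0.58. By this median they were low in the BO-112 tumours too, at -0.53 to -0.13. The sum of the 12 was 8726 CPM in DMXAA 2 and 9546 CPM in DMXAA 3, against 14204 to 23446 CPM in the other 13 libraries.

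**Figure D5:**
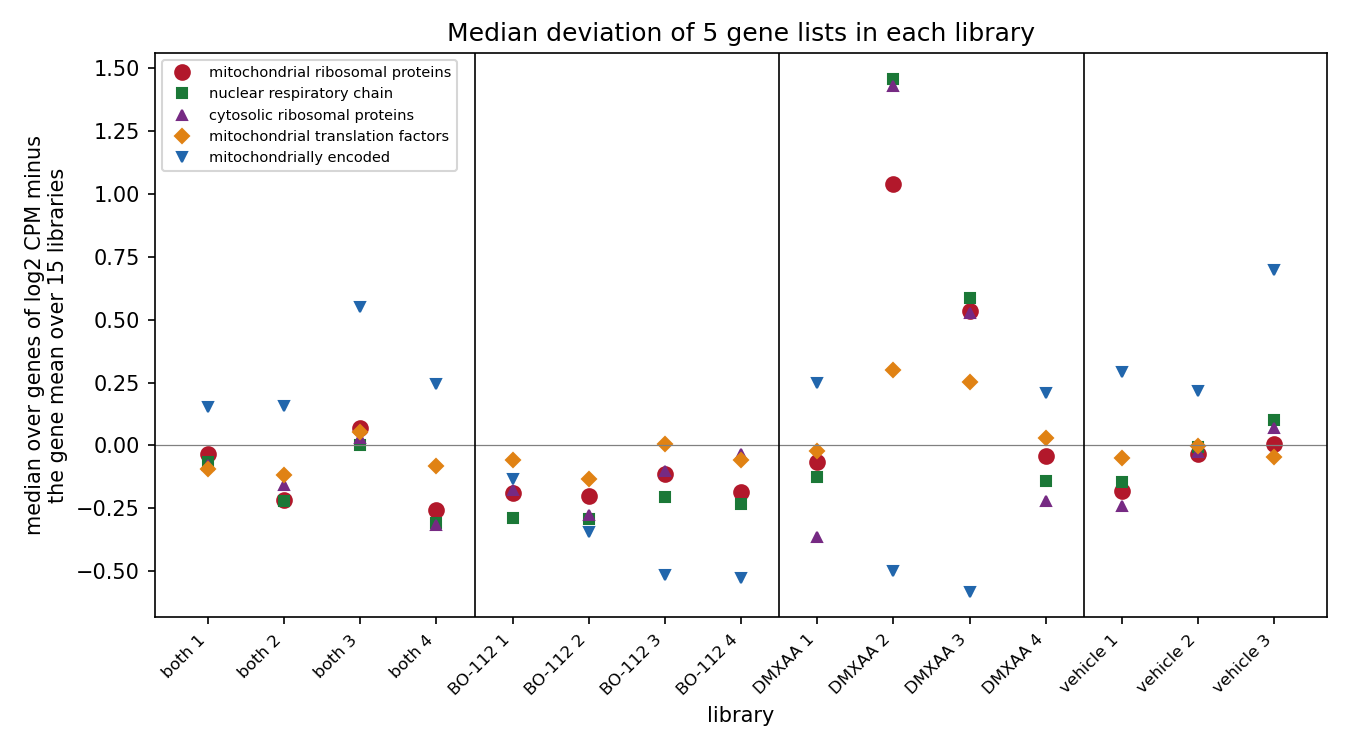
Median over the genes of a list of log2 CPM minus the gene's mean over 15 libraries (y axis) in each library (x axis), for the 77 mitochondrial ribosomal protein genes, 83 nuclear respiratory chain genes, 90 cytosolic ribosomal protein genes, 14 mitochondrial translation factors and 12 mitochondrially encoded genes. The first 3 lists are highest in DMXAA 2 and DMXAA 3, where the mitochondrially encoded genes stand at -0.50 and -0.58.

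In BO-112 against DMXAA, where 10.2% of all genes passed as lower, 29 of the 83 respiratory chain genes passed, all lower (median -0.66), with 3 lower and 1 higher without DMXAA 2 and DMXAA 3. The translation factors had 2 of 14 lower, the elongation factors Tufm (-0.63 ± 0.14, adjusted p = 0.0068) and Gfm1 (-0.30 ± 0.10, adjusted p = 0.039). The tRNA charging genes had 4 of 22 lower, among them the cysteine enzyme Cars2 (-0.42 ± 0.11, adjusted p = 0.0156). Assembly factors had 3 of 27 lower, Noa1, Mrm2 and Mtg1, and import genes 4 of 23, the outer membrane channel Tomm40 (-0.64 ± 0.13, adjusted p = 0.00573), its partner Tomm22, and Timm50 and Timm22 of the inner membrane. Of the 5 proteins without an Mrp symbol 1 passed, Aurkaip1 (-0.66 ± 0.21, adjusted p = 0.0369), and of the 90 cytosolic ribosomal proteins 3, Rpl7l1 and the gene copies Rpl6l and Rps4l, whose reads may be shared with Rpl6 and Rps4x. Of the 12 mitochondrially encoded genes mt-Co2 passed as lower (-0.80 ± 0.23, adjusted p = 0.0258). Of 13 regulators of mitochondrial biogenesis, Myc alone passed and was higher with BO-112 (0.44 ± 0.14, adjusted p = 0.0354). When DMXAA 2 and DMXAA 3 were left out, Tufm (-0.37 ± 0.11, adjusted p = 0.0453), Cars2 (-0.37 ± 0.11, adjusted p = 0.0498) and Tomm40 (-0.39 ± 0.11, adjusted p = 0.0363) still passed, and the other genes named for this comparison in these lists did not. In that fit mt-Nd2, mt-Nd1, mt-Nd5 and mt-Cytb passed as lower in place of mt-Co2.

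In BO-112 against vehicle, where 11.9% of all genes passed, 4 of the 12 mitochondrially encoded genes passed, all lower (median -0.82): mt-Co2 (-1.16 ± 0.25, adjusted p = 0.00604), mt-Nd1, mt-Nd4l and mt-Nd2. Without DMXAA 2 and DMXAA 3, where 25.1% of all genes passed, 10 of 12 passed as lower, as did 32 of the 83 respiratory chain genes (median -0.23). Of 21 genes of mitochondrial DNA expression, Pnpt1, the mitochondrial polynucleotide phosphorylase and a gene known to respond to interferon, passed as higher with BO-112 (1.01 ± 0.09, adjusted p = 6.7e-06) and with both agents against vehicle (0.60 ± 0.09, adjusted p = 0.00189). Its interaction was -0.71 ± 0.13, adjusted p = 0.016. Cars2 was lower with BO-112 than in vehicle tumours (-0.56 ± 0.12, adjusted p = 0.00492). In DMXAA against vehicle the assembly helicase Ddx28 passed as higher (0.60 ± 0.14, adjusted p = 0.0491), and it was the one gene of these 10 lists past the threshold there. It did not pass when DMXAA 2 and DMXAA 3 were left out. In BO-112 against DMXAA Pnpt1 passed as higher (0.70 ± 0.09, adjusted p = 0.00017) and Ssbp1, the single-stranded DNA binding protein, as lower (-0.66 ± 0.21, adjusted p = 0.0364). With DMXAA 2 and DMXAA 3 left out, Pnpt1 passed in all 4 of its comparisons named here and Ssbp1 did not.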

How the data were processed

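Poly(A) RNA of 15 tumours was sequenced with a stranded mRNA kit and 150-base paired reads, per the labels' protocols. The submitters' processing notes name STAR, edgeR, limma and the build mm39, with no roles. The deposited table holds log2 CPM that the authors computed with 0.5 reads added and a scaled library size. All of its values (100%, within 1e-06) gave whole reads, from which CPM and limma-voom were computed. A second deposited table of 15 columns of per-sample counts carries no sample names and was not used. Symbols and lengths came from GENCODE M21 and promoters from RefSeq.

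Differences were tested with limma 3.58.1 (trend, robust) in R 4.3.3 on the log2 CPM, with 1 model of 4 groups over 17712 genes and Benjamini-Hochberg adjustment. The interaction was both agents minus BO-112, less DMXAA minus vehicle. The fit was tested on simulated data. Reads per library set the precision, and no filter was added. The alternatives were other scalings, limma-voom, a replicate block, the groups compared alone, length, and left-out libraries.

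The members, gene lists and alternatives were chosen with earlier results of these data known. Genes named were a panel of known roles, the smallest adjusted p-values per comparison, the extremes of level, SD and correlation, and called genes of the other lists. Samples sharing a replicate number deviated together hardly more than others (mean r 0.0211 over 21 pairs, -0.0074 over 63), so they were not paired. Single pairs ranged from -0.34 to 0.32 and from -0.41 to 0.42.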

Additional observations from a re-analysis of the deposited data

Results flagged for a closer look

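In 10 of 174 groups of 4 tumours, 1 tumour lay far from the other 3: its gap to the nearest of them, as a share of the group's whole range, exceeded Dixon's 95% critical value. Chance gives about 1 in 20. With both agents these were Mrpl24 (0.898), Mrpl3 (0.859), Mrpl57 (0.927) and Mrps30 (0.894). With BO-112 they were Mrpl38 (0.832), Mrps2 (0.851), Mrps34 (0.877) and Mrps5 (0.881), the median deviation of the 77 mitochondrial ribosomal protein genes (0.857) and that of the genes of mitochondrial DNA expression (0.886). The DMXAA group, with a pair of high tumours, gave no such value.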

How the results depend on the processing

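In BO-112 against vehicle, where 0 genes of the family passed, 3 passed with scaling by total count alone (median -0.28), 14 with only the groups compared, 3 with the length trend removed (median 0.011) and 14 without DMXAA 2 and DMXAA 3. Of all 17712 genes, 2739 passed in that comparison with total count, 2758 with the length trend removed and 4439 without DMXAA 2 and DMXAA 3. The number with only the groups compared is not given here. Total-count scaling moved the median of all genes to -0.20, against -0.04. With the length trend removed the medians of DMXAA against vehicle, both agents against DMXAA and BO-112 against DMXAA were 0.29, -0.29 and -0.23. In DMXAA against vehicle 1 gene of the family and 200 of all genes passed in that fit, and the family's median was 0.018 without DMXAA 2 and DMXAA 3. Without those libraries 1 passed in both agents against vehicle, and the medians were -0.071 in both agents against DMXAA, -0.14 in BO-112 against DMXAA and 0.059 in the interaction. The 30 calls of BO-112 against DMXAA became 47 with total count, 2 with only the groups compared, 2 without DMXAA 2 and DMXAA 3, and 1 when the 4 libraries with most muscle RNA were left out. Of all genes 3970 passed with total count and 1936 without DMXAA 2 and DMXAA 3, against 3783 in the fit behind the 30 calls. The interaction called 2 with the length trend removed, and 386 of all genes. For alternatives chosen after seeing the data, array quality weights gave 8, 1 and 8 calls in BO-112 against vehicle, both agents against vehicle and BO-112 against DMXAA, where 5006, 1403 and 2599 of all genes passed. The family's medians with these weights were 0.16 in DMXAA against vehicle, -0.17 in both agents against DMXAA, -0.23 in BO-112 against DMXAA and -0.078 in the interaction. Centring each library on the family's median gave 1 and 8 in BO-112 against vehicle and against DMXAA, where 1011 and 4151 of all genes passed. In BO-112 against DMXAA, 30 of the 77 genes were then higher with BO-112, against 3 in the fit behind the 30 calls. Of the 8 calls there, 3 were higher and 5 lower. Among the genes turned to higher were Mrps22 (0.090), Mrps30 (0.34) and Mrps5 (0.096). Apart from what such a setting leaves out, the cause was not tested.

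Leaving out 1 library at a time gave 0 to 2 calls in BO-112 against vehicle (median -0.168 to -0.072), 0 to 1 in DMXAA against vehicle (0.210 to 0.598), 0 to 30 in both agents against DMXAA (-0.595 to -0.228) and 2 to 57 in BO-112 against DMXAA (-0.713 to -0.312). With the replicate number as a block, 34 genes passed in BO-112 against DMXAA, 29 of them among the 30, and 0 in the other comparisons. Calls over all genes in the single-library and block fits are not given here. Over the 43 named genes, 7494 of 7783 values were counted as unchanged, 181 as weaker, 105 as stronger and 3 as reversed. Of the 301 results behind them 20 were called. Changes of sign in results that were not called are not all counted as reversed.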

Other observations

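Several mitochondrial ribosomal protein genes share exon sequence on opposite strands with other genes of mitochondria. Mrpl36 overlaps Ndufs6, a subunit of complex I, by 30 bp, and Mrpl47 overlaps Ndufb5, also of complex I, by 158 bp. Over the 15 libraries the levels of these pairs had a Pearson r of 0.92 each. Mrpl43 overlaps Twnk, the mitochondrial DNA helicase, by 278 bp, with an r of 0.89. Among overlapping neighbours not tied to mitochondria r took both signs, for example -0.74 for Mrpl13 and Mtbp, which share 330 bp, -0.91 for Mrps7 and Gga3, 0.59 for Mrpl18 and Tcp1, and 0.63 for Mrpl24 and Rrnad1. The pairs were chosen after their values were seen. These values are descriptions. The points share the high libraries DMXAA 2 and DMXAA 3, and how strand was used in counting is not given in the sources used here.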
